A study of Mus musculus with 15 samples.

Results

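Glycolysis splits glucose into pyruvate, and lactate dehydrogenase interconverts pyruvate and lactate. Several of its steps are served by more than 1 gene, and the isoforms differ in how they are regulated and in which cells use them. The 10 genes described here encode hexokinase 1 (Hk1), glucose phosphate isomerase (Gpi1), the muscle, platelet and liver forms of phosphofructokinase (Pfkm, Pfkp and Pfkl), aldolase A (Aldoa), alpha and gamma enolase (Eno1 and Eno2), and the A and B subunits of lactate dehydrogenase (Ldha and Ldhb). They were chosen by name as the isoforms of these steps, out of 38561 genes with a count row, and all 10 passed the filter on low counts. Phosphofructokinase is a main control point of the pathway, gamma enolase is the form typical of mature neurons, and tetramers rich in the B subunit of lactate dehydrogenase favour lactate use over lactate production.

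The RNA came from laser-captured Purkinje cells (PCs), the output neurons of the cerebellar cortex, of male mice whose strain is written C56/BL6 in the labels. PCs were taken at postnatal day (P) 0, 4, 8, 14 and 21, with 3 biological replicates at each of these 5 time points and with no treatment or engineered allele named in the labels. The PC somata of the 4 later time points were cut singly from parasagittal sections, whereas at P0 clusters of PCs were cut, so the collection method and the P0 time point cannot be told apart. The comparison asks how the expression of these enzymes moved over the first postnatal weeks, when PCs grow their dendrites and form synapses.

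Counts on genes ranged from 3409371 to 7814951 per sample, and the 10 genes together took between 0.304% and 0.816% of them. The chi-square statistic per gene between replicates of a time point was between 18.4 and 56.5, far above the value near 1 that sampling noise gives. The 6 markers of PCs, Pcp2, Pcp4, Car8, Calb1, Ppp1r17 and Itpr1, all rose with postnatal day, and their summed level was between 4549 and 6007 CPM (each count divided by its TMM-scaled library size) at P0 and between 36886 and 46640 CPM at P21. Ppp1r17 was at or below 15.5 CPM in every P0 and P4 sample. The 9 markers of Bergmann glia and astrocytes were all detected, with sums between 4054 and 5680 CPM at P0, 5365 and 9268 at P4, 8260 and 9973 in the P8 samples, 6588 and 7002 at P14, and 3306 and 5114 at P21. Of these 9, 4 rose (Slc1a3, Slc1a2, Hopx and Gja1) and 2 fell (Fabp7 and Aldh1l1), and Fabp7, at 4662 ± 292 CPM at P8 and 186 ± 64.2 CPM at P21, took a large part of the sum. All 6 oligodendrocyte markers rose, with sums between 14.04 and 59.8 CPM at P0 and between 626 and 1286 CPM at P21, while Mag was at 0 in every P0 and P4 sample. Of the 5 granule neuron markers Atoh1 was at 0 in every sample, and the sums lay between 258 and 1012 CPM over all samples. Gabra6 rose with postnatal day, from 0.0641 ± 0.111 CPM at P0 to 103 ± 50.4 at P14 and 63.5 ± 16.9 at P21. Pax6 fell from 135 ± 52.9 CPM at P0 to 24.0 ± 7.20 at P21, and Cbln1 and Neurod1 did not pass the same trend test. The 4 microglial markers summed to at most 25.5 CPM, the 3 vascular markers to at most 121 CPM, and the 5 markers of red blood cells to between 643 and 994 CPM at P0 and between 174 and 884 CPM later. The part of these other cells in the values below was not tested, and in such pooled samples fewer cells of a type and less RNA per cell cannot be told apart.

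Over the 15 samples, 4 of the 10 genes rose with postnatal day (Pfkm, Aldoa, Eno2 and Ldhb) and 1 fell (Pfkp), each with an adjusted p below 0.05 by edgeR's quasi-likelihood test. Of all 14293 genes tested, 12.1% rose and 14.1% fell by the same rule. A further test, of any difference among the 5 time points, was passed by 5 of the 10 genes, Pfkp, Aldoa, Eno2, Ldha and Ldhb, and by 19.3% of all genes. Between P0 and P21 alone, 5 of the 10 differed, Pfkm, Pfkp, Aldoa, Eno2 and Ldhb, where 22.8% of all genes did. The median slope of the 10 genes was 0.016 log2 units per day, against -0.0077 over all genes tested. Scaling by total counts in place of TMM, the trimmed-mean normalization used throughout, moved the median over all genes to -0.025 and changed the split of all calls from 1729 that rose and 2021 that fell to 1230 and 2874, but the 5 genes above kept their calls. Within the isoform families the members parted, with Pfkm rising and Pfkp falling, Eno2 rising and Eno1 at a slope of 0.0051 ± 0.011 (SE), and Ldhb rising and Ldha at -0.036 ± 0.015.

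**Figure D1:**
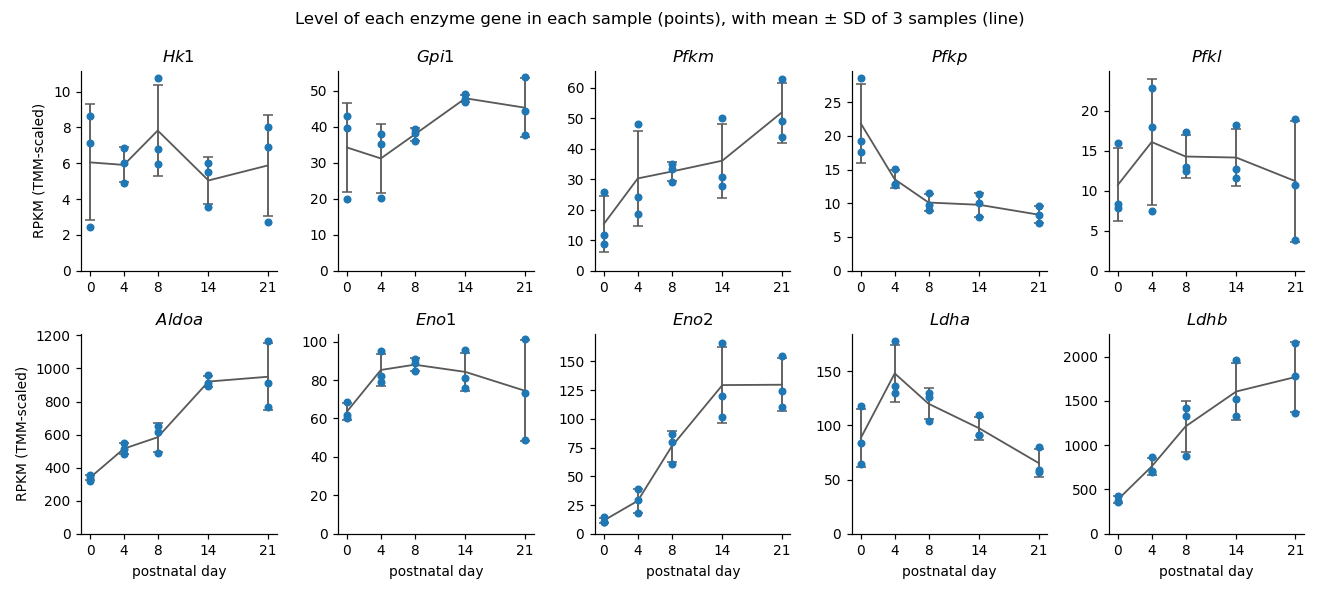
Level of each of the 10 enzyme genes (RPKM on TMM-scaled libraries, linear axes from 0) against postnatal day. Points are the 15 samples and the line with bars is the mean ± SD of 3 samples. Aldoa, Eno2 and Ldhb climb to P14 or P21, Pfkp drops after P0, Ldha is highest at P4, and Hk1, Pfkl and Eno1 have overlapping P0 and P21 samples.

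Levels are given as RPKM, counts scaled to the summed exon length of the gene and to TMM-scaled library size. At P0 Ldhb had the highest mean of the 10 genes, 386 ± 35.8 RPKM (SD, n = 3), and its samples overlapped those of no other gene but came close to the next, Aldoa, at 340 ± 17.1. Ldha (88.4 ± 27.0) and Eno1 (63.6 ± 4.29) followed and overlapped each other. Below both came Gpi1 (34.2 ± 12.4), Pfkp (21.8 ± 5.91), Pfkm (15.4 ± 9.12), Eno2 (11.6 ± 2.25), Pfkl (10.7 ± 4.56) and Hk1 (6.05 ± 3.24), each of which overlapped the next in this order. At P21 the order was Ldhb (1770 ± 396), Aldoa (950 ± 202), Eno2 (130 ± 22.9), Eno1 (74.5 ± 26.3), Ldha (65.3 ± 12.5), Pfkm (51.9 ± 9.82), Gpi1 (45.3 ± 8.13), Pfkl (11.2 ± 7.57), Pfkp (8.31 ± 1.27) and Hk1 (5.87 ± 2.81). Ldhb, Aldoa and Eno2 overlapped no gene below them, Eno1, Ldha, Pfkm and Gpi1 formed a run of overlapping neighbours, and so did Pfkl, Pfkp and Hk1. Eno2 thus moved from rank 8 to rank 3, and Pfkp from rank 6 to rank 9. These orders depend on the length used. Per kilobase of the longest protein-coding transcript Aldoa (638 ± 32.2) stood above Ldhb (464 ± 43.1) at P0, Ldhb led at P21 with 2132 ± 477, and Pfkp (26.9 ± 4.09) stood above Pfkl (19.995 ± 13.6) at P21.

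Hk1, which encodes the hexokinase that phosphorylates glucose at the entry of the pathway in neurons (ENSMUSG00000037012, chromosome 10, 62268855 to 62379908), had the lowest mean of the 10 at both ends of the series. Its level was 2.41, 8.63 and 7.10 RPKM at P0 and 2.70, 8.02 and 6.91 RPKM at P21, and lay between 3.54 and 10.8 RPKM at the times between. The time points overlapped, and the slope was -0.0073 ± 0.020 log2 units per day (adjusted p = 0.834, edgeR).

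Gpi1, the isomerase of the next step (ENSMUSG00000036427, chromosome 7, 34201330 to 34230336), was measured at 39.7, 42.9 and 20.04 RPKM at P0 and at 20.3, 38.1 and 35.2 RPKM at P4. It reached 49.0, 47.0 and 47.7 RPKM at P14, where every sample was above all P0, P4 and P8 samples, and 37.7, 44.4 and 53.9 RPKM at P21. The slope of 0.027 ± 0.012 did not pass (adjusted p = 0.0997, edgeR), though limma-voom gave an adjusted p of 0.0490.

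Of the phosphofructokinase genes, Pfkm rose and Pfkp fell. Pfkm (ENSMUSG00000033065, chromosome 15, 98092589 to 98132451) was at 25.7, 8.61 and 11.7 RPKM at P0, 48.0, 24.1 and 18.7 at P4, 29.2, 33.5 and 34.9 in the P8 samples, 50.04, 27.6 and 30.6 at P14, and 62.8, 43.7 and 49.1 at P21. All P21 samples were above all P0 samples. The means differed 3.38-fold, which exceeded the spread (log2 fold change 1.75 ± 0.41, adjusted p = 0.0050, edgeR). Its slope was 0.067 ± 0.018 (adjusted p = 0.0084, edgeR), and without the P0 time point 0.047 (adjusted p = 0.0637), which no longer passed.

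Pfkp (ENSMUSG00000021196, chromosome 13, 6579768 to 6648777) ran the other way. It was at 28.6, 17.7 and 19.2 RPKM at P0, 12.9, 15.1 and 12.7 at P4, 9.69, 11.6 and 9.07 in the P8 samples, 11.4, 7.89 and 10.1 at P14, and 8.27, 7.06 and 9.60 at P21. Every P0 sample was above every later sample, and P8, P14 and P21 overlapped. The mean at P0 was 2.63 times that at P21, and the slope was -0.060 ± 0.011 (adjusted p = 5.20e-04, edgeR). Without P0 the slope still passed, but the test of any difference among time points did not (adjusted p = 0.147). Pfkp shares 18.05% of its longest transcript with the overlapping gene Pitrm1, and the libraries carry no strand. Pfkl (ENSMUSG00000020277, chromosome 10, 77986947 to 78010083) varied more among replicates than over time. At P21 its 3 samples were at 3.85, 10.7 and 19.0 RPKM, which takes in all P0 samples (15.96, 8.35 and 7.804), and its slope was -0.0054 ± 0.022 (adjusted p = 0.891, edgeR).

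The summed level of the 3 phosphofructokinase genes was 47.9 ± 19.5 RPKM at P0 and 71.4 ± 8.69 at P21. Pfkm made up 30.6% ± 5.88 of it at P0 and 72.7% ± 10.4 at P21, while Pfkp made up 47.1% ± 5.61 and 11.6% ± 0.662. Per kilobase of the longest transcript the sum was 108 ± 37.7 at P0 and 107 ± 14.7 at P21, with Pfkm at 15.7% ± 3.84 and 56.6% ± 10.96 of it and Pfkp at 66.7% ± 4.72 and 25.1% ± 0.393, so the difference in the sum depended on the length used.

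Aldoa, which cleaves fructose 1,6-bisphosphate (ENSMUSG00000030695, chromosome 7, 126795234 to 126800751), rose from 320, 353 and 346 RPKM at P0 to 513, 548 and 483 at P4 and 486, 653 and 613 at P8. It stood at 960, 909 and 894 RPKM at P14 and 769, 914 and 1167 at P21. All P4 samples were above all P0 samples, and all P14 and P21 samples were above all earlier ones. The slope was 0.071 ± 0.0092 (adjusted p = 1.28e-05, edgeR) and the mean at P21 was 2.80 times that at P0.

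Among the enolases, Eno2 had the steepest rise of the 10 genes and Eno1 none that passed. Eno2 (ENSMUSG00000004267, chromosome 6, 124760053 to 124769673) was at 10.2, 10.4 and 14.2 RPKM at P0, 29.4, 39.0 and 17.6 at P4, 60.6, 79.9 and 87.2 in the P8 samples, 166, 102 and 120 at P14, and 110, 124 and 155 at P21. From P0 to P14 no sample of a time point overlapped the time point before it, and P14 and P21 overlapped. The mean rose 11.2-fold from P0 to P21 and the slope was 0.17 ± 0.025 (adjusted p = 4.91e-05, edgeR). Eno1 (ENSMUSG00000063524, chromosome 4, 150236721 to 150248879) was at 68.5, 60.4 and 61.9 RPKM at P0, lower than every sample from P4 to P14 (76.1 to 95.4), and at 48.7, 73.3 and 101 at P21, where it spanned all other values. Its test of any difference among time points did not pass (adjusted p = 0.413, edgeR).

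Lactate dehydrogenase RNA was mostly Ldhb, which rose. Ldhb (ENSMUSG00000030246, chromosome 6, 142490249 to 142507957) was at 373, 426 and 358 RPKM at P0, 703, 869 and 708 at P4, 881, 1423 and 1332 in the P8 samples, 1966, 1332 and 1522 at P14, and 1367, 1786 and 2158 at P21. Each of the first 3 time points lay fully above the one before, and the last 3 overlapped. The mean rose 4.59-fold from P0 to P21, with a slope of 0.099 ± 0.015 (adjusted p = 5.24e-05, edgeR).

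Ldha (ENSMUSG00000063229, chromosome 7, 46841475 to 46855627) had its highest mean at P4 and its lowest at P21. It was at 117, 83.9 and 64.0 RPKM at P0, 130, 178 and 136 at P4, 126, 104 and 130 in the P8 samples, 91.0, 91.2 and 109 at P14, and 58.9, 57.3 and 79.7 at P21. All P4 samples were above all P0 samples, and all P21 samples were below all samples from P4 to P14, while P0 and P21 overlapped. The test of any difference among time points passed (adjusted p = 0.0090, edgeR). The linear slope of -0.036 ± 0.015 did not (adjusted p = 0.0794, edgeR) but passed without the P0 time point (-0.066, adjusted p = 4.34e-04), without P0 replicate 2 (adjusted p = 0.0314) and without P0 replicate 3 (adjusted p = 0.0087). DESeq2 (adjusted p = 0.0399), upper quartile scaling (adjusted p = 0.0480) and total counts (adjusted p = 0.0103) called it as a fall as well.

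The promoters of this pair are shown because the 2 genes encode subunits of 1 enzyme and their courses part. Each window runs from 250 bases before to 50 after a RefSeq start on GRCm38.p6, at chr7:46845554-46845853 on the plus strand for Ldha and chr6:142507908-142508207 on the minus strand for Ldhb. Capitals mark every match to ACGTG, on either strand and with overlapping matches joined. ACGTG is a form of the core of the hypoxia response element, a motif bound by hypoxia-inducible factors. The related letters GCGTG were not sought and stand unmarked in both windows.
Ldha: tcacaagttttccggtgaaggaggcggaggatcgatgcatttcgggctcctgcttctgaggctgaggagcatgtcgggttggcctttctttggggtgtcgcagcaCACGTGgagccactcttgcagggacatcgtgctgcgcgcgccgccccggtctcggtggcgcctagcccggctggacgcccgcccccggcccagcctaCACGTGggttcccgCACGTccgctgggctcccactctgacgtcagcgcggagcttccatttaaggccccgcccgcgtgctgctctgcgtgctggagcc
Ldhb: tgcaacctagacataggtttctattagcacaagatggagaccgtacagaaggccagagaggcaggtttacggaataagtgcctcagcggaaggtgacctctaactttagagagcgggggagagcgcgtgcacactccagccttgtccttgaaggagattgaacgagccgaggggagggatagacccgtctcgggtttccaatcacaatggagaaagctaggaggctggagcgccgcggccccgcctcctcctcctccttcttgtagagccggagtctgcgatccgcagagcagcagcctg
The Ldha window shown held 3 capital stretches and the Ldhb window 0. A second Ldha window, around another RefSeq start at chr7:46846832-46847131, held 0 as well. Of all 32851 windows, 19.62% held at least 1 and 0.387% held 3 or more. Of the 10 genes, 4 (Ldha, Aldoa, Hk1 and Pfkm) had the letters in at least 1 of their windows, against 21.78% of 27025 genes, and over windows 6 of 19 did (31.58%). Neither enolase had them. A match describes letters only, and binding was not measured.

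Ratios of 2 isoforms within a sample do not depend on how libraries are scaled. Of the 4 ratios tested against postnatal day over 15 samples, 3 moved with age and the Pfkl to Pfkp ratio did not pass (Benjamini-Hochberg over the 4, 2-sided permutation tests of 100000 resamples). No batch is given in the labels, so no within-batch values can be had. The 2 samples farthest from the median day are P21 replicates 1 and 2, since the P21 samples tie.

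Ldhb exceeded Ldha per kilobase of exon in every sample. The ratio of Ldhb to Ldha was 3.18, 5.08 and 5.59 at P0, 5.43, 4.88 and 5.21 at P4, 6.97, 13.7 and 10.3 in the P8 samples, 21.6, 14.6 and 13.9 at P14, and 23.2, 31.2 and 27.1 at P21. P0 and P4 overlapped, and from P4 on each time point lay fully above the one before. The log2 ratio of Ldha to Ldhb fell with day (Pearson r = -0.949, permutation p = 1e-05, the smallest these permutations can give, adjusted p = 4e-05; Spearman rho = -0.938, permutation p = 1e-05), and r was -0.931 without the 2 farthest samples. Ldha made up 18.5% ± 4.74 of the summed Ldha and Ldhb level at P0, 16.2% ± 0.733 at P4, 9.40% ± 2.92 in the P8 samples, 5.85% ± 1.24 at P14 and 3.60% ± 0.513 at P21. The sum itself was 474 ± 46.3 RPKM at P0 and 1836 ± 406 at P21. Per kilobase of the longest transcript the median ratio of Ldhb to Ldha was lower, 3.35 at P0 and 17.9 at P21.

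The enolases moved from mostly Eno1 to a mixture. The ratio of Eno1 to Eno2 was 6.69, 5.79 and 4.35 at P0, 2.79, 2.02 and 5.38 at P4, 1.39, 1.14 and 1.02 in the P8 samples, 0.575, 0.747 and 0.675 at P14, and 0.443, 0.591 and 0.655 at P21. P4 replicate 3 stood among the P0 samples, P8 and P14 lay fully below the time points before them, and P14 and P21 overlapped. The log2 ratio fell with day (r = -0.916, permutation p = 2e-05, adjusted p = 4e-05; rho = -0.949, permutation p = 1e-05), and r was -0.906 without the 2 farthest samples. The time at which Eno2 passed Eno1 depended on the length used. Per kilobase of the longest transcript the median ratio was 9.12 at P0, 1.06 at P14 and 0.931 at P21, with P21 samples between 0.698 and 1.03. The summed enolase level was 75.2 ± 4.03 RPKM at P0 and 204 ± 49.0 at P21, with Eno2 at 15.5% ± 2.91 of it at P0 and 64.2% ± 4.59 at P21.

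The ratio of Pfkm to Pfkp was 0.901, 0.489 and 0.611 at P0, 3.72, 1.60 and 1.47 at P4, 3.01, 2.89 and 3.85 in the P8 samples, 4.40, 3.50 and 3.04 at P14, and 7.58, 6.18 and 5.12 at P21. P0 lay below and P21 above all other samples, and P4, P8 and P14 overlapped. The log2 ratio rose with day (r = 0.864, permutation p = 9e-05, adjusted p = 1.2e-04; rho = 0.895, permutation p = 3e-05), and r was 0.818 without the 2 farthest samples. Per kilobase of the longest transcript the median ratio was 0.219 at P0, 1.08 at P8 and 2.22 at P21, so the time at which Pfkm exceeded Pfkp moved with the length used.

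The ratio of Pfkl to Pfkp was between 0.407 and 0.558 at P0 and between 0.468 and 1.98 later. P4 replicate 2 (0.492) and P21 replicate 1 (0.468) stood with the P0 samples, and all others were above them. Over 15 samples r was 0.439 (permutation p = 0.102, adjusted p = 0.102) and rho 0.469 (permutation p = 0.0833). Without P21 replicate 1 r was 0.709 (permutation test, adjusted p = 0.0050), with log2(day + 1) in place of the day it was 0.634 (permutation test, adjusted p = 0.0118), and without the P0 time point it was 0.0041 (permutation test, adjusted p = 0.99).

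**Figure D2:**
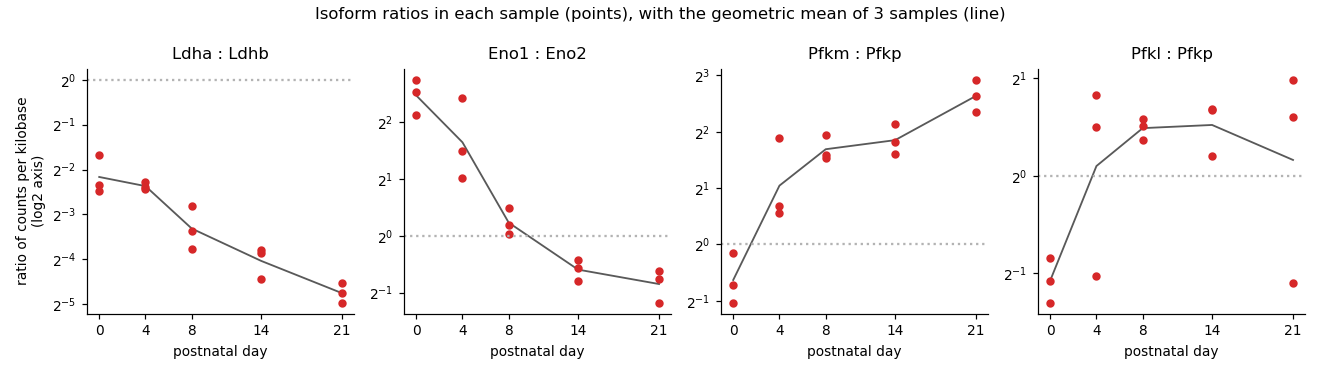
The 4 isoform ratios (counts per kilobase of summed exon length, log2 axes) against postnatal day. Points are the 15 samples, lines join the geometric means of 3 samples, and the dotted line marks a ratio of 1. Ldha to Ldhb and Eno1 to Eno2 fall, Pfkm to Pfkp rises, and P21 replicate 1 sits with the P0 samples for Pfkl to Pfkp.

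The steps between neighbouring time points show when the genes moved. From P0 to P4, where 1.97% of all genes changed, Eno2 rose by 1.30 ± 0.28 on the log2 scale (adjusted p = 0.0222, edgeR) and Ldhb by 0.98 ± 0.21 (adjusted p = 0.0222, edgeR). Aldoa had a log2 fold change of 0.60 ± 0.16 (adjusted p = 0.0645), Ldha of 0.74 ± 0.22 (adjusted p = 0.116) and Pfkp of -0.69 ± 0.22 (adjusted p = 0.148), none of which passed by edgeR. Aldoa passed by edgeR without P21 replicate 1 (adjusted p = 0.0486) and without P21 replicate 3 (adjusted p = 0.0322), and by DESeq2 (adjusted p = 0.0111). Ldha passed without P0 replicate 1 (adjusted p = 0.0444, edgeR). From P4 to P8, where 1.13% of all genes changed, Eno2 rose again by 1.40 ± 0.27 (adjusted p = 0.0183, edgeR). From P8 to P14, where 2.67% changed, Aldoa rose by 0.66 ± 0.16 (adjusted p = 0.0323, edgeR), and Eno2 was at 0.77 ± 0.27 (adjusted p = 0.175). From P14 to P21, where 0.329% changed, edgeR and DESeq2 called 0 of the 10 genes. Of the 10, 1, Ldha, had an unadjusted p below 0.05 by edgeR (log2 fold change -0.57 ± 0.22), as did 1003 of all 14293 genes.

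These step calls rest on 3 samples against 3, and each was lost without some single libraries. Leaving out each of the 15 samples in turn, the P0 to P4 call of Eno2 was lost in 4 cases (P0 replicates 1 and 2 and P4 replicates 1 and 2), with edgeR's adjusted p up to 0.0949. That of Ldhb was lost in 3 cases (P0 replicates 1 and 3 and P4 replicate 2), with edgeR's adjusted p up to 0.0779. The P4 to P8 call of Eno2 was lost in 4 cases (P4 replicates 1 and 3 and P8 replicates 2 and 3), with edgeR's adjusted p up to 0.0808. The P8 to P14 call of Aldoa was lost in 5 cases (P8 replicates 1 and 3 and all P14 replicates), with edgeR's adjusted p up to 0.152. All 4 changes kept their sign in all 15 cases.

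**Figure D3:**
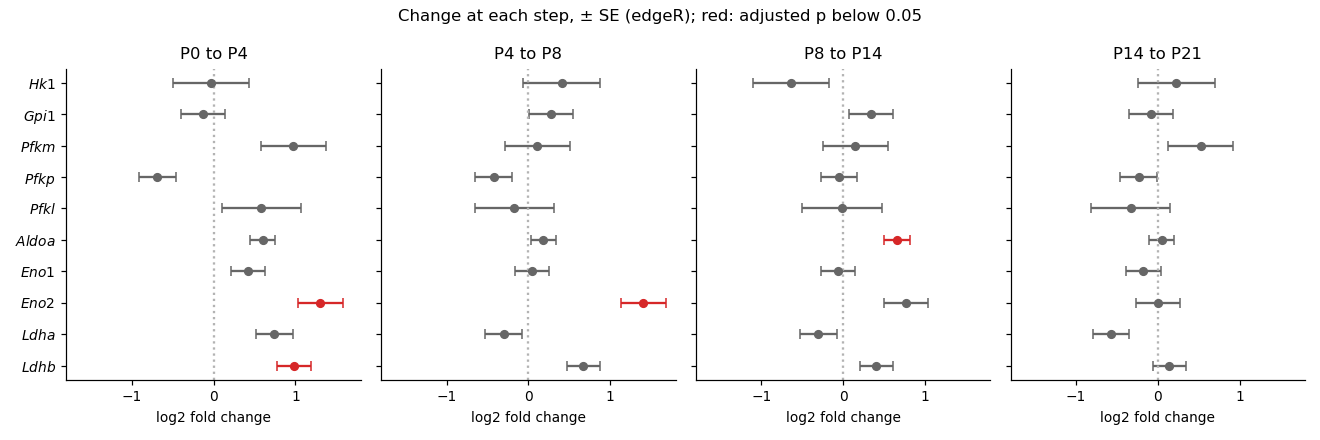
Log2 fold change of each gene at each step between neighbouring time points, with its SE (edgeR, 15 samples in 1 fit). Red points have an adjusted p below 0.05 over all genes. Eno2 and Ldhb are red from P0 to P4, Eno2 from P4 to P8, Aldoa from P8 to P14, and no gene from P14 to P21.

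Because only uniquely mapped reads were counted, genes with near-identical copies elsewhere in the genome lose reads or share them. Copies were sought with at least 95% identity over at least 300 bases of the longest protein-coding transcript, and 4 of the 10 genes had them. For Eno1 the processed pseudogene Gm4735 matched 1302 bases at 99.6% identity and held 5388 counts over all samples, against 33950 of Eno1, whereas the protein-coding copy Eno1b held 40. For Gpi1 the processed pseudogene Gm1840 matched 1046 bases at 98.7% and held 4581 counts, equal to 22.8% of those of Gpi1. For Ldhb the processed pseudogene Gm5514 (chromosome 19, 21937380 to 21938381) matched 1002 bases at 98.0% and held 2350 counts, or 1.66% of those of Ldhb. For Ldha the copy with a count row, Gm11814, held 34 counts. Longer matches, Gm5452 (997 bases at 95.9%) and Gm9247 (1000 bases at 95.6%), had no count row. Such copies matched 55.0% of the longest transcript of Ldha, 76.8% of that of Ldhb, 85.6% of that of Eno1 and 50.2% of that of Gpi1. Hk1, Pfkm, Pfkl, Aldoa and Eno2 had no such copy. Levels of Eno1, Gpi1, Ldha and Ldhb are therefore uncertain, and the ratios of these genes carry the same limit. Without strand, reads within the 18.05% of the longest Pfkp transcript that overlaps Pitrm1 cannot be assigned to 1 gene. The level of Pfkp and the ratios with it are thus uncertain too. Adding the copies' counts changed no call of the trend test among the 10 genes. Reads that matched both a gene and its copy were in no count, so this addition could not test their loss.

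The genes most like the lactate dehydrogenase pair were ranked by Pearson r of log2(CPM + 1) over the 15 samples, among 9732 genes with a mean of at least 10 CPM. For Ldhb these were its own copy Gm5514 (r = 0.987), H2-D1 (r = 0.979), a class I histocompatibility gene of a family of near-identical members, and Mdh1 (r = 0.976), the cytosolic malate dehydrogenase. For Ldha they were Mocs2 (r = 0.886), a subunit of molybdopterin synthase, Gng12 (r = 0.883), a G protein gamma subunit, and Nrp1 (r = 0.855), a receptor for semaphorins and vascular endothelial growth factor. These r values describe the samples, which share age and library, and carry no test.

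Around these enzymes, a list of 54 other genes was examined with the same tests. They cover glucose uptake, glycolysis, and lactate and pyruvate handling, and include 5 linked regulators of transcription. All are called pathway genes here. Of the 54, 53 had a count row and 44 could be tested. Of the 44, 15 rose and 1 fell (background 12.1% and 14.1%), with a median slope of 0.029 log2 units per day. Among the 15 that rose, 2 (Epas1 and Esrra) were of the 5 regulators. The gene that fell, Pfkfb1, was at most 8.74 CPM in any sample. By the trend test the hexokinases other than Hk1 had 0 calls among 3 tested. The pyruvate dehydrogenase complex with its kinases and phosphatases had 3 of 11, all upward, and the carriers of lactate and pyruvate 3 of 6. Hk2, at 0.595 ± 1.03 CPM at P0 and 15.7 ± 7.42 at P21, differed between these time points (log2 fold change 4.67 ± 1.23, adjusted p = 0.0115, edgeR). From the other aldolases down to pyruvate kinase, 5 of 10 rose, among them Eno4, whose mean was at most 2.19 CPM at any time point.

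Aldoc, the aldolase C known as the stripe antigen zebrin II of PCs and also made by astrocytes, had the steepest slope of the 14 pathway genes named here (0.42 ± 0.054, adjusted p = 1.28e-05, edgeR). It was at 31.4 ± 12.5 RPKM at P0, 53.9 ± 13.4 at P4, 707 ± 234 in the P8 samples, 4660 ± 1224 at P14 and 4117 ± 1507 at P21. Its P0 and P4 samples (17.8 to 62.3 RPKM) were below every Aldoa sample, and its P14 and P21 samples (2777 to 5749 RPKM) above every Aldoa sample. The markers of Bergmann glia and astrocytes did not move as 1 group beside it. Slc1a3, Slc1a2, Hopx and Gja1 rose with postnatal day as Aldoc did, for example Hopx from 10.4 ± 5.91 CPM at P0 to 144 ± 31.4 CPM at P21, whereas Fabp7 and Aldh1l1 fell. Their part in the level of Aldoc was not tested.

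Pkm, the pyruvate kinase of muscle and brain, rose from 412 ± 155 CPM at P0 to 1810 ± 501 CPM at P21 (slope 0.11 ± 0.013, adjusted p = 7.62e-06, edgeR). Gapdh (166 ± 34.1 to 309 ± 99.98 CPM) and Pgk1, which act between aldolase and enolase, rose at slopes of 0.048 for both, and Gapdh is a gene with many processed pseudogenes. Pgk1 was at 41.8 ± 9.98 CPM at P0, 110 ± 18.7 at P14 and 84.5 ± 17.6 at P21. Of the other enzymes between aldolase and enolase, Tpi1 (slope 0.017, adjusted p = 0.471), Pgam1 (slope 0.029, adjusted p = 0.165) and Bpgm (slope 0.0073, adjusted p = 0.824) did not pass by edgeR. Slc2a3, the neuronal glucose transporter, rose from 23.8 ± 17.3 to 99.4 ± 27.0 CPM (slope 0.089 ± 0.020). Pfkfb3, which makes the activator of phosphofructokinase, rose from 13.6 ± 3.08 to 41.2 ± 18.7 CPM (slope 0.069 ± 0.024, adjusted p = 0.0395, edgeR).

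Beyond pyruvate, Mpc2, a subunit of the mitochondrial pyruvate carrier, rose from 111 ± 27.9 CPM at P0 to 418 ± 14.4 at P14 and stood at 349 ± 107 at P21. Dlat and Dld, subunits of the pyruvate dehydrogenase complex, rose at slopes of 0.085 ± 0.022 and 0.033 ± 0.012 (adjusted p = 0.0076 and 0.0458, edgeR). Dlat was at 29.3 ± 16.0 CPM at P0, 129 ± 34.0 at P14 and 92.7 ± 8.91 at P21. Pdk2, a kinase that inhibits the complex, rose from 31.1 ± 9.77 to 105 ± 24.2 CPM. Of the chaperones of lactate carriers, Bsg (basigin) rose from 354 ± 86.3 CPM at P0 to 767 ± 108 at P14 and stood at 609 ± 133 at P21, and Emb (embigin) rose from 4.67 ± 2.22 to 90.8 ± 6.91 CPM (slope 0.20 ± 0.038, adjusted p = 5.63e-04, edgeR). Epas1, a hypoxia-inducible factor also active in vessels (4.92 ± 4.98 to 29.4 ± 1.63 CPM), and Esrra, a nuclear receptor of mitochondrial genes (8.05 ± 4.65 to 40.2 ± 17.98 CPM), rose as well. Hif1a (82.0 ± 35.3 to 73.0 ± 3.21 CPM, adjusted p = 0.583), Myc (adjusted p = 0.127) and Ppargc1a (adjusted p = 0.724), also on the list, did not pass edgeR's trend test.

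**Figure D4:**
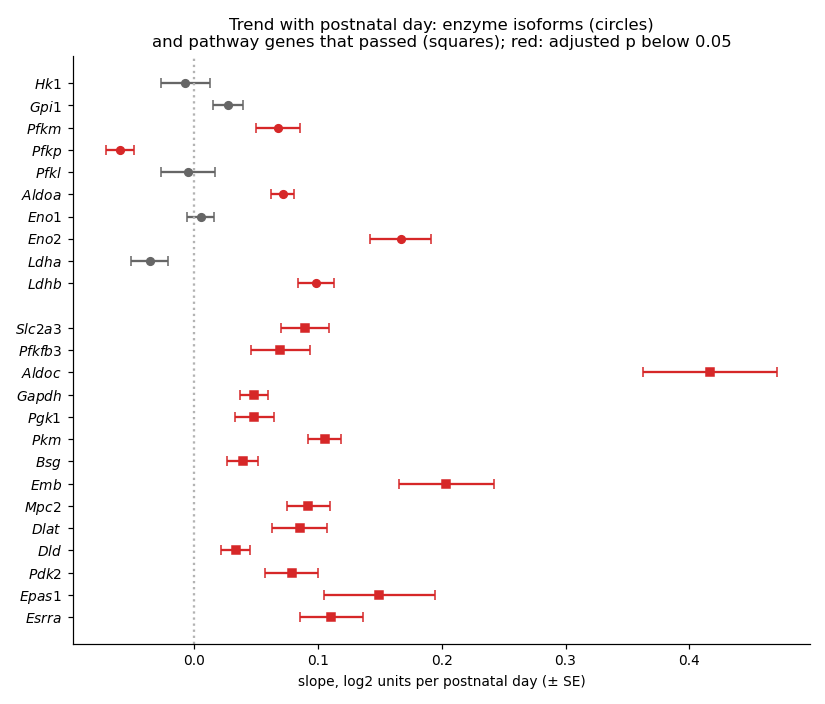
Slope with postnatal day (log2 units per day ± SE, edgeR) of the 10 enzyme isoforms (circles) and of the 14 pathway genes that reached a mean of 20 CPM at some time point and passed the trend test (squares). Red marks an adjusted p below 0.05. All 14 pathway genes rise, Aldoc at 0.42 and Emb at 0.20 per day, and among the isoforms only Pfkp passed with a negative slope in this fit.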

How the data were processed

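Per the submitters' processing notes and methods, paired reads were trimmed (cutadapt 1.2.1) and placed on GRCm38/mm10 by GSNAP, and the authors had HTSeq 0.5.3p9 count the uniquely mapped ones for each gene (intersection-strict). The deposited values are these raw counts, 1 library per sample, and the annotation release is not given in the sources used here. The kit does not keep strand. The 5 tally rows of HTSeq were kept out. Those for reads in no gene and for ambiguous reads made up between 18.2% and 31.0% of their sum with the gene counts.

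Counts were tested with edgeR 4.0.16 in R 4.3.3 (TMM, filterByExpr by time point, quasi-likelihood F test, Benjamini-Hochberg over 14293 genes at 0.05), with postnatal day as a number for the trend and as a factor for any change and for steps. RPKM used TMM library sizes and summed exon lengths of GENCODE M21 (36639 of 38561 identifiers matched). Ratios had 0.5 counts added per gene. Copies were sought with BLAST 2.17.0. DESeq2 1.42.0 and limma 3.58.1 gave alternatives. Tests were checked on simulated data. Further work used Python 3.11.15, scipy 1.17.1 and matplotlib 3.10.9.

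The 10 genes and all lists were chosen with earlier results of these data known. Named in addition were the listed pathway genes with at least 20 CPM that passed the trend test and the 3 genes most like Ldha and Ldhb. Ppp1r17, the other single markers, Pfkfb1, Hk2, Eno4, Hif1a, Myc, Ppargc1a, Tpi1, Pgam1, Bpgm, Pitrm1 and the copies were named after their values were seen. A count of 0 lies below 3 counts of a library, for counting error only.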

Additional observations from a re-analysis of the deposited data

How the results depend on the processing

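The count of genes that rose was 4 under 8 of the 10 other settings, 5 with limma-voom and 3 without P0, and 4 in each of the 15 fits that left out 1 sample. Over all genes, 1729 rose in the main fit, 2238 with limma-voom and 1411 without P0. The count that fell was 2 in place of 1 with upper quartile scaling, with total counts only, with DESeq2 and without the P0 time point, Ldha being the added gene each time, and ranged from 1 to 2 when single samples were left out. Over all genes, 2021 fell in the main fit, 2186 with upper quartile scaling, 2874 with total counts only, 2307 with DESeq2 and 1526 without P0. With DESeq2, 4 genes changed from P0 to P4 in place of 2 (with Pfkp and Aldoa) and 2 changed from P4 to P8 in place of 1 (with Ldhb). The share of all genes that DESeq2 called at these steps is not given here, so these counts have no background. The cause of the added calls was not tested. Leaving out single samples, the number of genes called ranged from 0 to 3 for P0 to P4, from 0 to 1 for P4 to P8 and for P8 to P14, from 5 to 6 for P0 to P21 and from 5 to 6 for any change. The correlation of ratio with day ranged from -0.963 to -0.938 for Ldha to Ldhb, from -0.928 to -0.904 for Eno1 to Eno2, from 0.841 to 0.916 for Pfkm to Pfkp and from 0.343 to 0.709 for Pfkl to Pfkp, which passed without P21 replicate 1 and, at r = 0.634, with log2(day + 1).

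No pairing by replicate number was seen in the correlation of deviations, which averaged -0.0036 over 30 pairs of same-numbered samples with 0 above 0.1. Over 60 pairs with different numbers it averaged 0.0018. The labels do not say what samples of the same number share, and a shared preparation was not tested. With the replicate block the counts that rose and fell stayed at 4 and 1, and 6 genes in place of 5 passed the test of any change, Pfkm being added (adjusted p = 0.0084, edgeR). Pfkm was also the sixth gene with no filter (adjusted p = 0.0288, edgeR), with DESeq2 (adjusted p = 0.0102) and with limma-voom (adjusted p = 0.0223), and without P0 the count was 4, Pfkp being lost. The blocked correlation was -0.955 for Ldha to Ldhb, -0.917 for Eno1 to Eno2, 0.886 for Pfkm to Pfkp and 0.443 for Pfkl to Pfkp. The slopes of Pfkl and Eno1, which passed in no setting, changed sign in 4 of 25 settings each, and that of Hk1 in 1. The addition of copies' counts and the length of the longest transcript were chosen after seeing the data. Depth limits Hk1 most, with 69 to 455 counts per sample.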

Other observations

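Some genes of the pathway list followed a course that a straight line misses. Slc16a1, the lactate carrier MCT1, was at 11.7 ± 7.35 CPM (SD, n = 3) at P0, 36.3 ± 2.51 at P4, 86.5 ± 9.18 in the P8 samples, 94.4 ± 14.5 at P14 and 54.4 ± 10.4 at P21. Its test of any difference among time points passed (adjusted p = 1.87e-04, edgeR) and its slope did not (adjusted p = 0.0666, edgeR). Slc2a1, the glucose transporter of the blood-brain barrier, was at 45.0 ± 29.6 CPM at P0 and 6.07 ± 3.14 at P4. It was at 17.0 ± 6.37 in the P8 samples, 23.2 ± 12.2 at P14 and 40.5 ± 17.7 at P21 (adjusted p for any difference = 0.0430, edgeR). The 3 vascular markers summed to between 33.5 and 121 CPM at P0, 27.8 and 48.1 at P4 and 16.0 and 35.4 at P21. The 5 markers of red blood cells summed to between 643 and 994 CPM at P0, 174 and 190 at P4 and 499 and 884 at P21. The part of either marker group in the course of Slc2a1 was not tested. Slc16a1 and Slc2a1 were picked after their values were seen.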
